A study of Mus musculus with 2 samples.

Results

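The cells described here are Cxcr2-Retnlg neutrophils, a subset of tumour neutrophils chosen by their own counts of 3 genes, Cxcr2, Retnlg and Lrg1, and proposed under the name of recently recruited neutrophils. They numbered 2187 of 24160 cells kept in the series, and of 7842 neutrophils. Single-cell RNA was measured in 2 orthotopic allograft tumours of the mouse pancreas, 1 grown from KPC-shV cells and 1 from KPC-shZEB1 cells. KPC is a mouse pancreatic cancer line, shV is the control and shZEB1 a hairpin against Zeb1, carried by the injected cancer cells and not by the neutrophils of the host. Each tumour came from 1 mouse and gave 1 library, so mouse, tumour, dissociation, library and group are the same split and cannot be told apart. The labels name no drug, age or strain, while the text of the study states that the mice of both sequenced tumours had gemcitabine, a chemotherapy drug.

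A barcode was kept with at least 500 genes, 1000 to 60000 unique molecular identifiers (UMIs, each standing for 1 captured RNA molecule) and at most 15% mitochondrial UMIs. A kept cell was a neutrophil when S100a8, S100a9 and Csf3r made up at least 0.4% of its UMIs, with at most 1 UMI of Csf1r and at most 2 of Krt8 and Krt18. A neutrophil was a member when Cxcr2, Retnlg and Lrg1 summed to 4 UMIs or more, Siglecf was at 0, and Rsad2, Ifit1, Ifit3 and Cmpk2 summed to under 4. The library labelled KPC-shV, from here the shV-labelled library, held 1552 members among 5268 neutrophils and 11713 kept cells, and the library labelled KPC-shZEB1, from here the shZEB1-labelled library, held 635 among 2574 and 12447. Where a pair of values follows, the first is of the shV-labelled library. Members held a median of 3336 and 2988 UMIs, and the neutrophils under 4 UMIs of the 3 genes held 3003.5 and 2795. The 2 libraries shared 46 barcodes by sequence, 40 of them kept in both, and 1 of these was a member in both.

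Because the members were chosen by measured values and there is 1 library per group, no comparison below carries a test. Levels are in CPM, the summed UMIs of a gene per 1000000 UMIs of that group of cells. Intervals are 95% intervals on the counts, exact unless stated otherwise, and cover counting error only, not differences between mice or tumours. In the text a gene is called higher or lower in members where its level was past 1.5-fold of that in the other neutrophils, in the same direction, in both libraries.

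Neutrophils are short-lived granulocytes made in the bone marrow. Cxcr2 is the receptor for chemokines such as Cxcl1 and Cxcl2 that draws them from marrow to blood and into inflamed tissue, and cells fresh from the blood carry Cxcr2, whereas Cxcr4 is known for rising as neutrophils age. Retnlg encodes resistin-like gamma, a secreted protein of granulocytes, and Lrg1 encodes a leucine-rich glycoprotein stored in neutrophil granules. In tumours, neutrophils take up further programs, among them inflammatory cytokines, glycolysis and responses to low oxygen.

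The promoters of the 3 selecting genes are shown because these genes define the cells. The bases, from RefSeq on build GRCm38.p6, run 5′ to 3′ on the strand of the gene and end at the base before the start of the gene in the RefSeq table or in the GRCm38 annotation, whichever comes first. Capitals mark matches, on either strand, to GAGGAA, a core of the PU.1 site, or TTGCNNAA, a core of the C/EBP site, the binding letters of 2 factors of the granulocyte line.
Cxcr2: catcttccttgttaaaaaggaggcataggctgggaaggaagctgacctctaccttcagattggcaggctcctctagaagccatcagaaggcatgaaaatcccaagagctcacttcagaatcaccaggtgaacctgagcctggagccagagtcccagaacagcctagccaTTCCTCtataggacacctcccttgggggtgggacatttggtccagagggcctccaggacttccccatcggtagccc
Retnlg: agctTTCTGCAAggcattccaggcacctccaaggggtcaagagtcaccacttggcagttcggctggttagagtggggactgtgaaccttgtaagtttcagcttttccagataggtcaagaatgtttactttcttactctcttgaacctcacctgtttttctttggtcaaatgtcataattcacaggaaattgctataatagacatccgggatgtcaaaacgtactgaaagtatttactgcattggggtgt
Lrg1: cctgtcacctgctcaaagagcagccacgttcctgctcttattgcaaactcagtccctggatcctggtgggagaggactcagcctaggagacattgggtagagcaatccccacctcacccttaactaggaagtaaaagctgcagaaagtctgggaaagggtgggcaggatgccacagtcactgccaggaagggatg

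These stretches lie at chr1:74153744-74153988 on the plus strand for Cxcr2, chr16:48872358-48872607 on the plus strand for Retnlg and chr17:56122002-56122196 on the minus strand for Lrg1. The genes themselves span chr1:74153989-74161246, chr16:48872621-48874496 and chr17:56119678-56122001 in the GRCm38 annotation. The Cxcr2 stretch held a match to GAGGAA read on the opposite strand, the Retnlg stretch held a match to TTGCNNAA read on the opposite strand, and the Lrg1 stretch held neither. Among 32851 mouse promoters cut to 250 bases, 23.3% held GAGGAA and 9.56% held TTGCNNAA on either strand. A match is a description of letters and not evidence of a bound site.

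Retnlg supplied most of the UMIs that chose the members. In the shV-labelled library it gave 68.9% of the members' UMIs of the 3 genes, against 14.3% from Cxcr2 and 16.8% from Lrg1. In the shZEB1-labelled library the shares were 55.6% from Retnlg, 22.8% from Cxcr2 and 21.7% from Lrg1. All 3 genes had a UMI in 31.6% and 32.6% of members, and 18.7% and 10.2% had UMIs of Retnlg alone. The members therefore mix cells chosen mainly by Retnlg with cells chosen by Cxcr2 and Lrg1, and 20.9% of them in the first and 30.7% in the second had no Retnlg UMI.

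As a description of the choice, Retnlg stood at 2156 CPM in members and 304 CPM in other neutrophils of the shV-labelled library, and at 1551 and 150 CPM in the shZEB1-labelled library. Cxcr2 stood at 449 and 176 CPM in the first and at 636 and 228 CPM in the second. Lrg1 stood at 526 and 98.6 CPM and at 605 and 107 CPM. RNA that leaks into droplets gives every cell some UMIs, and its size was read in tumour epithelial cells, taken here to lack these genes. There Retnlg stood at 34.5 and 8.52 CPM, Cxcr2 at 6.26 and 6.09 CPM and Lrg1 at 20.2 and 18.1 CPM. Among the tumour cells, 5 held 26.9% and 16.7% of the Retnlg UMIs and 21.1% and 38.2% of the Lrg1 UMIs. Whether tumour cells make any of these genes was not tested. These tumour cells, 418 and 273 in number, were picked by at least 10 UMIs of Krt8 and Krt18, no Ptprc and under 5 UMIs of Cpa1 and Cpb1. Tumour cells were far deeper than neutrophils, with medians of 23161 and 16889 UMIs, so lymphocytes, at medians of 4451 and 3919 UMIs, were read as well. The 505 and 1640 lymphocytes were cells outside the neutrophils with at least 3 UMIs of 6 T and B cell genes, Cd3d, Cd3e, Trbc2, Cd79a, Cd79b and Ms4a1, no Csf1r and at most 2 UMIs of Krt8 and Krt18, a reference chosen after the data were seen.

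At least 4 UMIs of the 3 genes were found in 2 of 505 lymphocytes (0.396%, exact interval 0.0480% to 1.42%) of the shV-labelled library and in 6 of 1640 (0.366%, 0.134% to 0.795%) of the shZEB1-labelled library, beside 36.3% and 29.0% of all neutrophils. In the deeper tumour cells that share was 6.46% and 1.83%. Retnlg gave a UMI in 15.2% and 4.45% of lymphocytes and 42.8% and 14.7% of tumour cells, so its leaked RNA was higher in the shV-labelled library. It gave one in 79.1% and 69.3% of members, and in 25.1% and 15.9% of neutrophils under 4 UMIs of the 3 genes, whose medians were 3004 and 2795 UMIs. Retnlg in those neutrophils thus lay above the lymphocyte share in both libraries. It lay below the tumour cell share in the shV-labelled library and near it in the shZEB1-labelled library. Tumour cells were far deeper, so that share cannot tell leaked RNA from expression in those neutrophils. Per UMI, Retnlg stood at 115 and 73.5 CPM in those neutrophils, against 34.5 and 8.52 CPM in tumour cells. Its level per UMI was also above that of lymphocytes in both libraries. The part of leaked RNA in the Retnlg of those neutrophils was not tested. Cxcr2 gave a UMI in 31.9% and 44.4% of these neutrophils against 6.53% and 3.72% of lymphocytes and 12.9% and 9.16% of tumour cells. The part of leaked RNA in the number of members was not tested.

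Of the 2 markers given for these cells but not used to choose them, Ifitm1 was higher and G0s2 was short of the limit. Ifitm1, an interferon-induced membrane protein, stood at 3463 CPM in members and 1428 in other neutrophils of the shV-labelled library, 2.42-fold (2.38 to 2.47). In the shZEB1-labelled library it stood at 2791 and 1272 CPM, 2.19-fold (2.12 to 2.27). G0s2, an inhibitor of the lipase that opens fat droplets, stood at 9879 and 6739 CPM in the first and at 8469 and 6176 CPM in the second, 1.47-fold and 1.37-fold. Among the defining markers of neutrophils, S100a8 had a UMI in 99.6% and 98.6% of members and Csf3r in 95.9% and 95.4%, both used by the rule. Mmp9 had a UMI in 61.5% and 60.3% and Il1r2 in 86.3% and 90.4%, while Ly6g, the classical surface marker, had a UMI in 6.06% and 5.35%. Nothing in these files times the arrival of a cell, so the name recently recruited could not be checked.

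**Figure D1:**
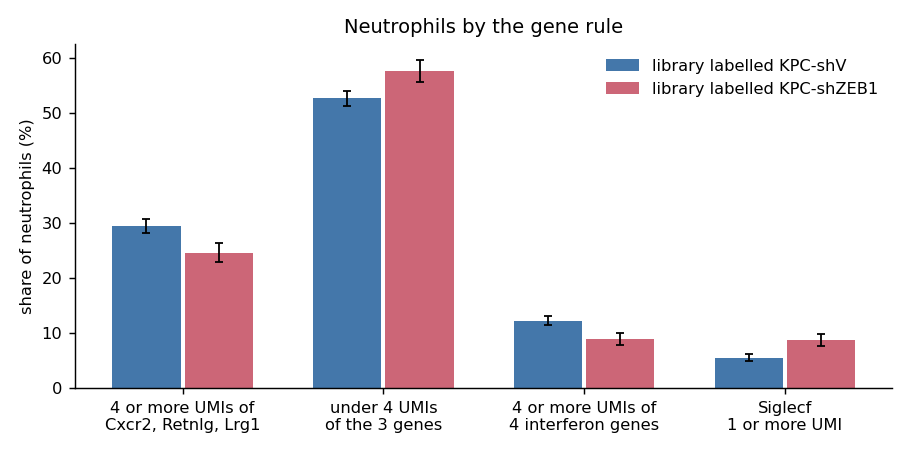
Shares of neutrophils in each library taken by Cxcr2-Retnlg members and by the 3 kinds of other neutrophils, in percent, with 95% exact binomial intervals. Members took 29.5% in the shV-labelled library and 24.7% in the shZEB1-labelled library, and neutrophils under 4 UMIs of the 3 genes took 52.7% and 57.7%.

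Of the neutrophils, 29.5% (28.2 to 30.7) were members in the shV-labelled library and 24.7% (23.0 to 26.4) in the shZEB1-labelled library, a ratio of 0.837 (0.762 to 0.919). The other neutrophils split into those with Siglecf, a lectin of eosinophils and of some tumour neutrophils, those with 4 UMIs or more of the interferon genes, and those under 4 UMIs of the 3 genes. The Siglecf neutrophils took 5.58% and 8.78% of neutrophils, and the interferon neutrophils took 12.3% and 8.90%. Many of these would have been members by the 3 genes alone, namely 107 of 294 and 45 of 226 Siglecf neutrophils, and 251 of 648 and 67 of 229 interferon neutrophils. Counted over every neutrophil with 4 UMIs or more, the shares were 36.3% and 29.0%.

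As a share of all kept cells, members made up 13.3% (12.6 to 13.9) in the shV-labelled library and 5.10% (4.72 to 5.50) in the shZEB1-labelled library, 0.385-fold (0.351 to 0.423). All neutrophils made up 45.0% and 20.7%, 0.460-fold, so most of that gap was shared by the neutrophils as a whole. The smaller gap within neutrophils depended on how members were chosen. With Retnlg left out and Cxcr2 and Lrg1 at 3 UMIs or more, the order turned, with 20.2% in the first and 22.3% in the second (ratio 1.102, 0.994 to 1.22). With Retnlg alone at 3 UMIs or more the shares were 19.6% and 12.5% (ratio 0.640, 0.563 to 0.726). In cells of 2000 to 6000 UMIs, with the rule as it was, they were 30.2% and 25.5% (ratio 0.846, 0.766 to 0.933). After each cell was thinned to 1500 UMIs, with the limits on the 3 genes and on the interferon genes both lowered to 2 UMIs, the shares were 31.0% and 29.6% (ratio 0.957, 0.875 to 1.04), and the parts of depth and of the lowered limits in that ratio were not told apart. A share of neutrophils can also move with the number of other neutrophils.

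The shZEB1-labelled library was not shown to have less Zeb1. Zeb1 stood at 165 CPM in tumour cells of the shV-labelled library and 195 CPM in those of the shZEB1-labelled library, 1.19-fold (1.09 to 1.29), against the label. In members it stood at 154 and 206 CPM.

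Against the other neutrophils of the same library, 4751 genes outside the rule stood at 20 CPM or more in either group of both libraries. Of these, 112 (2.36%) were higher in members and 246 (5.18%) were lower. The median gene lay at a log2 ratio of -0.13 in the shV-labelled library and -0.16 in the shZEB1-labelled library. Centred on that median, 210 genes were higher and 126 lower, so the balance of directions depends on the scaling, and the values below are best read against the median gene. Members and other neutrophils shared library, dissociation and leaked RNA.

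The largest ratios belonged to Camp and Ngp, which encode the cathelicidin peptide and neutrophilic granule protein, products of immature neutrophils in the marrow. Camp stood at 83.7 CPM in members and 1.22 in other neutrophils of the shV-labelled library, and at 61.5 and 1.01 CPM in the shZEB1-labelled library. Ngp stood at 111 and 2.68 CPM in the first and at 207 and 2.36 CPM in the second. Both came from very few cells. The 5 cells with most UMIs held 99.4% and 100% of the members' Camp UMIs and 98.1% and 99.3% of their Ngp UMIs, and 3 members of each library had 5 UMIs or more of the pair. The ratios were also taken without the 5 leading cells of the members and without the 5 leading cells of the other neutrophils. That of Camp was then 0.659 in the first, and no Camp UMI of members was left in the second. That of Ngp was 1.25 and 1.05, so these genes describe single cells and not the subset.

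The other genes with the largest ratios were less concentrated in few cells than Camp and Ngp. Tgm1, a transglutaminase, stood at 75.0 CPM in members and 23.9 in other neutrophils of the shV-labelled library, and at 75.2 and 24.0 CPM in the shZEB1-labelled library, 3.14-fold in both. Pglyrp1, which binds bacterial peptidoglycan, stood at 190 and 61.0 CPM in the first and at 288 and 105 CPM in the second, 3.11-fold and 2.74-fold. Cd300lb, an activating receptor of myeloid cells, was 3.08-fold and 2.72-fold higher. The retinol dehydrogenase Rdh12 stood at 124 and 48.6 CPM in the first and at 263 and 89.7 CPM in the second. The peptidase inhibitor Pi16 was 2.91-fold higher in the first and 2.92-fold higher in the second. Cxcr5, the receptor for Cxcl13, was 2.43-fold and 2.64-fold higher, Lypd6b 2.51-fold and 2.73-fold, and Rasgrp2, an activator of the GTPase Rap1, 2.93-fold and 2.46-fold. The 5 leading cells held 25.2% and 24.4% of the members' Lypd6b UMIs and 8.62% and 25.6% of their Rasgrp2 UMIs. Ifitm6 was 2.70-fold and 3.33-fold higher. Without the 5 leading cells of members and the 5 of other neutrophils it was 1.98-fold and 2.14-fold. Ly6g stood at 31.2 and 10.9 CPM in the first and at 27.4 and 4.22 CPM in the second, and 5 members held 31.4% and 36.2% of the members' Ly6g UMIs. It stood at 25.4 and 3.43 CPM in Siglecf neutrophils of the 2 libraries and at 18.4 and 14.2 CPM in interferon neutrophils. In the neutrophils under 4 UMIs of the 3 genes it stood at 6.79 and 2.76 CPM.

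**Figure D2:**
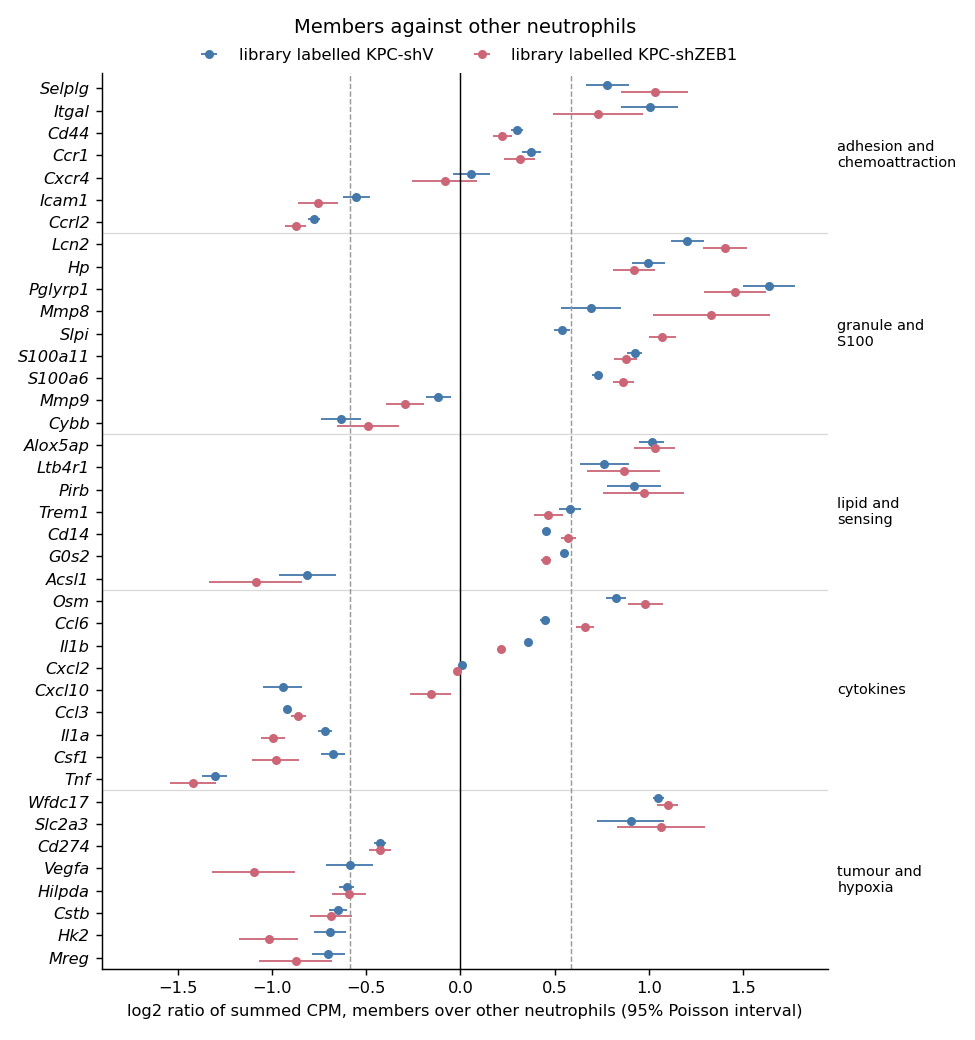
Log2 ratio of the level in Cxcr2-Retnlg members over other neutrophils of the same library for genes grouped by role, with 95% exact counting intervals; each gene has a point for the shV-labelled library and one for the shZEB1-labelled library. Selplg, Pglyrp1 and Alox5ap lie to the right in both libraries, and Tnf, Il1a and Acsl1 to the left in both.

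Among 11 measured genes of adhesion and migration, 3 were higher in members and none lower. Among the 3, Selplg, which encodes a surface glycoprotein by which leukocytes roll on vessel walls, stood at 197 CPM in members and 115 in other neutrophils of the shV-labelled library, and at 218 and 107 CPM in the shZEB1-labelled library. That was 1.72-fold and 2.04-fold. Itgal, the alpha chain of the integrin LFA-1, was 2.00-fold and 1.66-fold higher. Itgam and Cd44 lay at 1.11 and 1.26, and at 1.23 and 1.17. Icam1, which binds LFA-1 on the partner cell, lay the other way at 0.682 and 0.592, short of the limit in the first.

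Of 4 chemokine receptors outside the rule, 1 was lower. Ccrl2, a receptor that binds chemerin without signalling, stood at 1777 CPM in members and 3040 in other neutrophils of the shV-labelled library, and at 1485 and 2721 CPM in the shZEB1-labelled library, 0.584-fold and 0.546-fold. Ccr1 lay at 1.30 and 1.24, and Cxcr1, which shares ligands with Cxcr2, at 1.75 and 1.38. Cxcr4, the receptor known for rising with age, stood at 229 and 220 CPM in the first and at 174 and 185 CPM in the second, and its ratio intervals (0.974 to 1.11 and 0.836 to 1.06) held 1 in both. None of 13 receptors for growth factors and cytokines was past the limit.

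Granule genes were sorted by when in development they are made. None of 5 genes of the azurophil granules, the earliest, reached 20 CPM in members of either library. Of 8 measured genes of the specific granules 4 were higher, of which Camp and Ngp came from few cells. The other two were Lcn2, an iron-sequestering protein, and Hp, haptoglobin. Lcn2 stood at 397 and 172 CPM in the shV-labelled library and at 551 and 208 CPM in the shZEB1-labelled library, 2.30-fold and 2.65-fold. Tumour cells had Lcn2 at 258 and 428 CPM, and the part of leaked RNA in its level in neutrophils was not tested. Hp was 2.00-fold and 1.89-fold higher. It stood at 374 and 515 CPM in members and at 427 and 408 CPM in Siglecf neutrophils. Hp thus did not set members apart from the Siglecf neutrophils in the shV-labelled library. Cybb, a subunit of the oxidase that is also stored in the specific granules, lay at 0.645 and 0.713.

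Of 8 measured genes of the gelatinase granules and late maturation 3 were higher. Mmp8, neutrophil collagenase, stood at 101 and 62.5 CPM in the shV-labelled library and at 79.0 and 31.4 CPM in the shZEB1-labelled library, 1.62-fold and 2.51-fold. Stfa2l1, a stefin that inhibits cysteine proteases, was 1.77-fold and 2.11-fold higher, and the sheddase Adam8 1.86-fold and 1.73-fold. Slpi, a protease inhibitor, lay at 1.45 and 2.10. Mmp9, gelatinase itself, lay at 0.921 and 0.816. Of 4 S100 genes outside the rule, S100a6 was 1.66-fold and 1.82-fold higher and S100a11 1.90-fold and 1.84-fold. None of 8 genes of the NADPH oxidase and the formyl peptide receptors was past the limit.

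Secreted factors differed between genes. Of 19 cytokine and chemokine genes 1 was higher and 4 were lower, with a median log2 ratio of -0.36 in the shV-labelled library and -0.15 in the shZEB1-labelled library, the latter close to the median of all genes. Osm, oncostatin M, was the higher one, at 1003 and 566 CPM in the first and 790 and 400 CPM in the second, 1.77-fold and 1.97-fold. Tnf stood at 365 CPM in members and 902 in other neutrophils of the first and at 289 and 771 CPM in the second, 0.405-fold (0.386 to 0.424) and 0.374-fold (0.343 to 0.407).

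The other lower ones were Ccl3, a chemokine for monocytes and T cells, Il1a and Csf1. Ccl3 stood at 4689 and 8864 CPM in the shV-labelled library and at 2879 and 5232 CPM in the shZEB1-labelled library. Il1a was 0.607-fold and 0.502-fold, and Csf1, the growth factor of macrophages, 0.625-fold and 0.507-fold. Ccl4 lay at 0.594 and 0.742 and the antagonist Il1rn at 0.685 and 0.635. Il1b stood at 19977 and 19707 CPM in members of the 2 libraries, 1.28-fold and 1.16-fold, and Cxcl2, a ligand of Cxcr2, lay at 1.01 and 0.988. Members thus had less RNA of Tnf, Il1a and Ccl3 than other neutrophils while Il1b and Cxcl2 were within the limit.

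Genes of lipid mediators included Alox5ap, which presents arachidonic acid for leukotriene synthesis. It stood at 618 and 306 CPM in the shV-labelled library and at 551 and 270 CPM in the shZEB1-labelled library, 2.02-fold and 2.04-fold. Ltb4r1, the receptor for leukotriene B4, was 1.70-fold and 1.82-fold higher, and the fatty acid transporter Slc27a4 1.57-fold and 1.96-fold. Acsl1, which activates fatty acids, was 0.570-fold and 0.472-fold. In all, 3 of 9 genes of this list were higher and 1 was lower. Pirb, an inhibitory receptor for MHC class I, was the 1 of 15 sensing genes past the limit, at 1.89-fold and 1.96-fold. Of 12 actin genes, Actg1 (1.71-fold and 1.60-fold) and Lsp1 (1.86-fold and 1.76-fold) were higher.

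Genes that other tumour neutrophil states are known for were mixed. Of 23 such genes 2 were higher and 4 lower. Wfdc17, a small secreted protein of myeloid cells, stood at 3043 and 1469 CPM in the shV-labelled library and at 2070 and 967 CPM in the shZEB1-labelled library, 2.07-fold and 2.14-fold. Wfdc21 was 1.53-fold and 1.79-fold. The lower ones were Vegfa (0.665 and 0.468), Cstb (0.638 and 0.622), Fnip2 (0.626 and 0.613) and Gpnmb (0.529 and 0.545). With members taken by Retnlg alone, Fnip2 turned to 1.02 and 1.16 and Gpnmb to 1.05 in the shZEB1-labelled library. Cd274, which encodes PD-L1, stood at 1937 and 2605 CPM in the first and at 1388 and 1867 CPM in the second, 0.744-fold in both, short of the limit. Of 17 genes of hypoxia and glycolysis, Hilpda (0.658 and 0.664), Mreg (0.615 and 0.546) and Hk2 (0.619 and 0.495) were lower, while the glucose transporter Slc2a3 was 1.87-fold and 2.09-fold higher. Hilpda too turned with Retnlg alone, to 1.04 in the shZEB1-labelled library.

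The rule set aside cells with much of 4 interferon genes, so a lower level of their companions in members is in part fixed by the choice. Of 17 interferon genes outside the rule 2 were higher, Ifitm1 and Ifitm2, and 4 were lower, Ifit2, Ifit3b, Usp18 and Slfn5. Usp18, which removes Isg15 from proteins, stood at 17.3 CPM in members and 70.9 in other neutrophils of the shV-labelled library, but at 23.9 CPM in the neutrophils under 4 UMIs of the 3 genes, which the interferon cut also excluded. In the shZEB1-labelled library these values were 10.9, 46.3 and 17.0 CPM. Ifit2 stood at 5.00 and 5.68 CPM in members and at 5.64 and 6.45 CPM in those neutrophils. Ddx60, Ifit3b, Ifi209 and Trim30c, also among the 12 lowest ratios, had their highest level in the interferon neutrophils, as did Ifi207, which however also stood at 197 and 182 CPM in the neutrophils under 4 UMIs against 88.7 and 83.7 CPM in members.

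The remaining genes among the 12 lowest ratios were lower against neutrophils under 4 UMIs of the 3 genes too. Tnf stood at 953 and 785 CPM there. Ikbke, a kinase of the interferon and NF-kB pathways, stood at 74.3 CPM in members and 197 CPM in those neutrophils of the shV-labelled library and at 75.7 and 203 CPM in the shZEB1-labelled library. Plau, urokinase, stood at 13.9 and 46.4 CPM in the first and at 19.9 and 59.0 CPM in the second. The lipid phosphatase gene Mtmr7 stood at 13.6 and 45.6 CPM and at 12.3 and 30.4 CPM, and the linker histone gene H1f0 at 8.03 and 21.0 CPM and at 9.46 and 21.2 CPM. Mtmr7 and H1f0 were at 26.2 to 55.6 CPM in tumour cells, and the part of leaked RNA in these low levels was not tested.

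Osm was highest in members and next in the interferon neutrophils. In the shV-labelled library it stood at 1003 CPM in members, 438 in Siglecf, 911 in interferon and 489 in the neutrophils under 4 UMIs of the 3 genes. In the shZEB1-labelled library it stood at 790, 183, 708 and 394 CPM. Ifitm6 stood at 74.3 CPM in members and 62.3 CPM in interferon neutrophils of the first and at 92.2 and 102 CPM in the second, so it did not set members apart from the interferon neutrophils.

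The limit of 4 UMIs cut through a range of counts. Cells at 4 UMIs of the 3 genes numbered 285 and 135, and cells at 5 or fewer were 31.4% and 39.5% of members. Just outside the limit, 363 and 202 of the neutrophils that passed the Siglecf and interferon cuts had 3 UMIs. Ifitm1 stood at 2154 CPM at 3 UMIs and 2556 CPM at 4 UMIs in the shV-labelled library, and at 1721 and 1689 CPM in the shZEB1-labelled library. Tnf stood at 611 and 530 CPM in the first and at 496 and 449 CPM in the second. Cells at 3 and at 4 UMIs differ by 1 molecule, so these values do not tell whether members are a separate group.

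To take depth out of this range, each neutrophil with 1500 UMIs or more was thinned to 1500, which left out 185 and 74 cells. The Siglecf and interferon neutrophils were left out of the bins below. Over bins of 0, 1, 2 to 3, 4 to 5, 6 to 9 and 10 or more thinned UMIs of the 3 genes, Tnf stood at 1063, 743, 417, 270, 261 and 106 CPM in the shV-labelled library. In the shZEB1-labelled library it stood at 948, 555, 467, 259, 128 and 170 CPM. Il1a ran from 2482 to 814 CPM and from 2371 to 582 CPM between the end bins, and Alox5ap from 247 to 864 CPM and from 212 to 965 CPM. Cxcl2 ran from 33429 to 29545 CPM and from 27323 to 24894 CPM. The top bin held 145 and 47 cells.

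**Figure D3:**
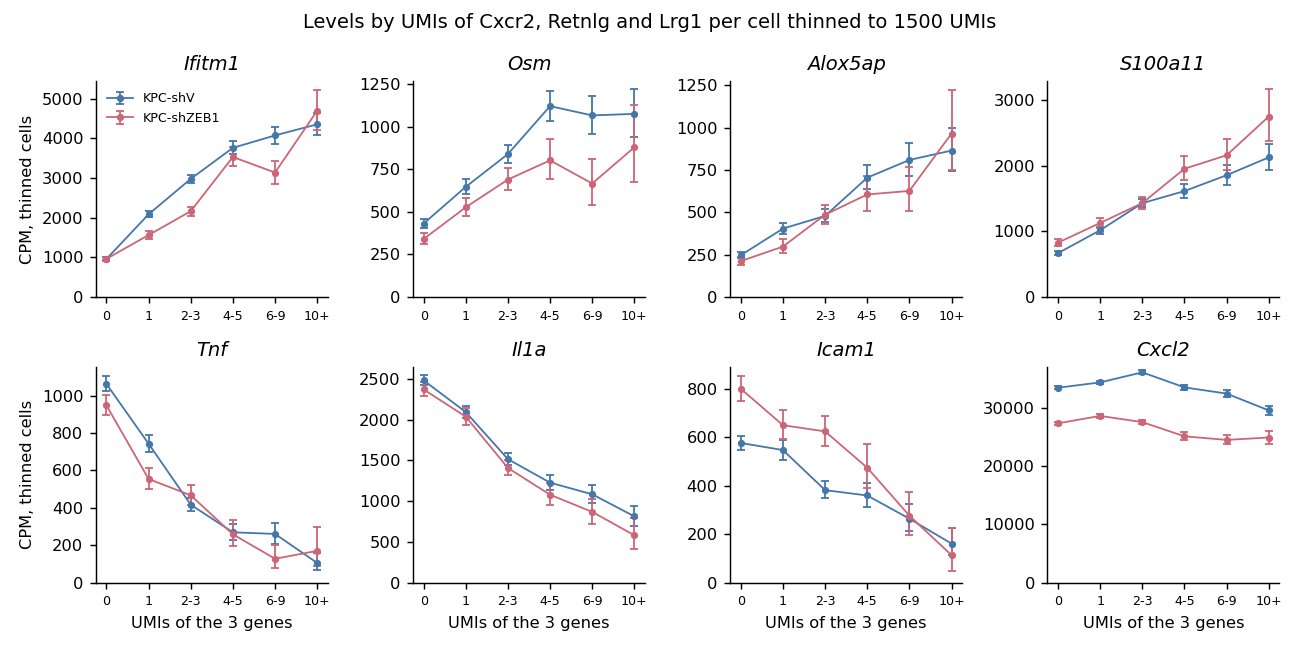
Level in CPM of selected genes in neutrophils binned by UMIs of Cxcr2, Retnlg and Lrg1 after each cell was thinned to 1500 UMIs. Siglecf and interferon neutrophils were left out of the bins. Intervals are 95% exact counting intervals, with 1 line per library. Ifitm1 and Alox5ap lie higher and Tnf and Il1a lower in the upper bins than in the bin at 0, in both libraries.

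Members with much Retnlg were set beside members without it, a split added with earlier values known. Members with no Retnlg UMI could meet the rule only through Cxcr2 and Lrg1, so this sets members chosen mainly by Retnlg beside members chosen by the other genes, and a ratio cannot be credited to Retnlg itself. Cxcr2 accordingly stood at 314 CPM in the first kind and 670 in the second in the shV-labelled library, and at 470 and 826 CPM in the shZEB1-labelled library. In the shV-labelled library 851 members had 4 Retnlg UMIs or more and 325 had 0, with median UMIs of 3345 and 3257. In the shZEB1-labelled library they numbered 258 and 195, with medians of 3022 and 2859. Of 2637 genes at 50 CPM or more outside the rule, 126 (4.78%) were past 1.5-fold higher in the Retnlg cells of both libraries and 121 (4.59%) lower.

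Genes of hypoxia and glycolysis were among the higher ones, with 7 of 17 past the limit and none lower. The median log2 ratio of this list was 0.82 and 0.53, against -0.10 and -0.04 for all genes. Bnip3, a mitophagy receptor induced by low oxygen, stood at 374 CPM in Retnlg cells and 105 in cells without it in the shV-labelled library, and at 174 and 76.5 CPM in the shZEB1-labelled library. That was 3.55-fold (2.95 to 4.30) and 2.28-fold (1.64 to 3.22). The oxidase gene Ero1l, of the endoplasmic reticulum, stood at 1162 and 349 CPM in the first and at 523 and 242 CPM in the second. Slc2a3 was 2.82-fold and 4.01-fold, Hilpda, a lipid droplet protein, 2.31-fold and 2.15-fold, the glycolytic enzyme Tpi1 2.31-fold and 2.40-fold, and Mreg 1.79-fold and 2.92-fold. Hif1a itself lay at 1.16 and 1.31.

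Hilpda and Mreg, lower in members than in other neutrophils, were thus higher in the Retnlg cells among the members. Ccl6, a chemokine of myeloid cells, stood at 4974 and 2002 CPM in the shV-labelled library and at 3728 and 1299 CPM in the shZEB1-labelled library. Wfdc17 was 1.68-fold and 2.00-fold and S100a6 1.53-fold and 1.65-fold. Syne1, which encodes a nuclear envelope protein, was 6.81-fold and 8.33-fold, and Fnip2 3.60-fold and 4.23-fold. On the other side, Icam1 stood at 282 and 587 CPM in the first and at 312 and 630 CPM in the second, 0.481-fold and 0.496-fold. Tnf lay at 0.622 and 0.430, Bcl2a1d, an inhibitor of cell death, at 0.519 and 0.444, and the decoy receptor gene Il1r2 at 0.586 and 0.622.

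**Figure D4:**
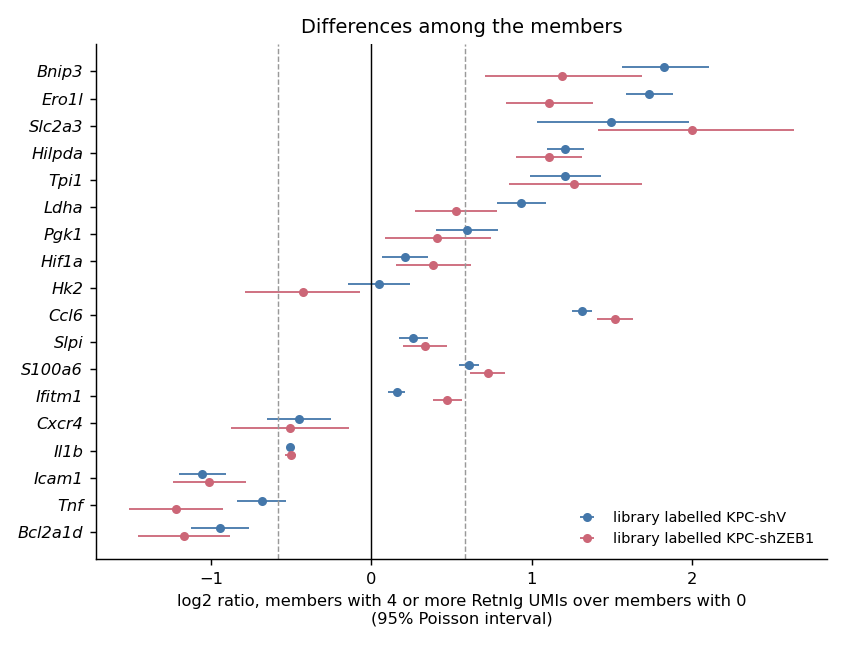
Log2 ratio of the level in members with 4 Retnlg UMIs or more over members with none, for selected genes, with 95% exact counting intervals and 1 point per library. Bnip3, Ero1l, Slc2a3 and Hilpda lie to the right and Icam1, Tnf and Bcl2a1d to the left in both libraries.

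Between libraries, 4963 genes, genes of the rule among them, stood at 20 CPM or more in the members of either one. Of these, 609 (12.3%) were past 1.5-fold higher in members of the shZEB1-labelled library and 187 (3.77%) lower, with a median ratio of 1.07 in members and 1.08 in other neutrophils. Centred on the median, 446 were higher and 299 lower. Each ratio below compares 1 library with 1 library, and the same ratio in the other neutrophils is given beside it.

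The genes with the largest ratios were mostly of other cell types. Try4 and Prss2, which encode pancreatic trypsinogens, and Ctrb1, which encodes chymotrypsinogen, were 20.2-fold, 3.89-fold and 5.38-fold higher in members of the shZEB1-labelled library. In the other neutrophils they were 31.5-fold, 5.67-fold and 8.89-fold higher, and in tumour cells 19.7-fold, 4.55-fold and 5.01-fold. Apoe, a lipid carrier made by macrophages, stood at 452 and 1406 CPM, 3.11-fold in members, 3.08-fold in other neutrophils and 3.31-fold in tumour cells. H2-Ab1, an MHC class II gene, was 3.23-fold, 3.16-fold and 2.95-fold in the same order. The transcript AY036118 was 3.49-fold, 3.60-fold and 2.52-fold and the mitochondrial gene mt-Nd2 3.21-fold, 3.51-fold and 2.78-fold. These ratios were thus shared by cells of unlike type in that library.

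Of the marker lists of other cell types, those of macrophages, dendritic, acinar, B, and T and NK cells were past 1.5-fold higher in members of the shZEB1-labelled library, while those of tumour epithelial cells and of fibroblasts and endothelium were not. In members, the summed level of 10 macrophage and monocyte genes was 921 CPM in the shV-labelled library and 2418 in the shZEB1-labelled library, beside 953 and 2446 in other neutrophils. That of 6 dendritic cell genes was 399 and 1213 CPM (other neutrophils 416 and 1278), and that of 14 acinar genes, 1 of them at 0, was 161 and 763 CPM (105 and 976). The 5 B cell genes summed to 66.1 and 148 CPM (40.6 and 131), the 6 T and NK genes to 36.6 and 127 CPM (36.4 and 79.5), the 7 fibroblast and endothelial genes to 623 and 755 CPM (674 and 793) and the 7 tumour epithelial genes to 1110 and 1114 CPM (1264 and 1253). The 8 genes of eosinophils, basophils and mast cells summed to 9.46 and 14.2 CPM (11.2 and 10.8), with 4 and 2 of them at 0 in members. The 3 erythroid genes summed to 81.1 and 0.946 CPM (11.1 and 3.72), and 5 cells held 87.0% of the first. In members, 5 cells also held 50.2% and 55.8% of the T and NK UMIs and 39.5% and 33.5% of the B cell UMIs. Of the acinar UMIs, 5 cells held 48.3% and 12.7%. The part of these cell types in the results between libraries was not tested.

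**Figure D5:**
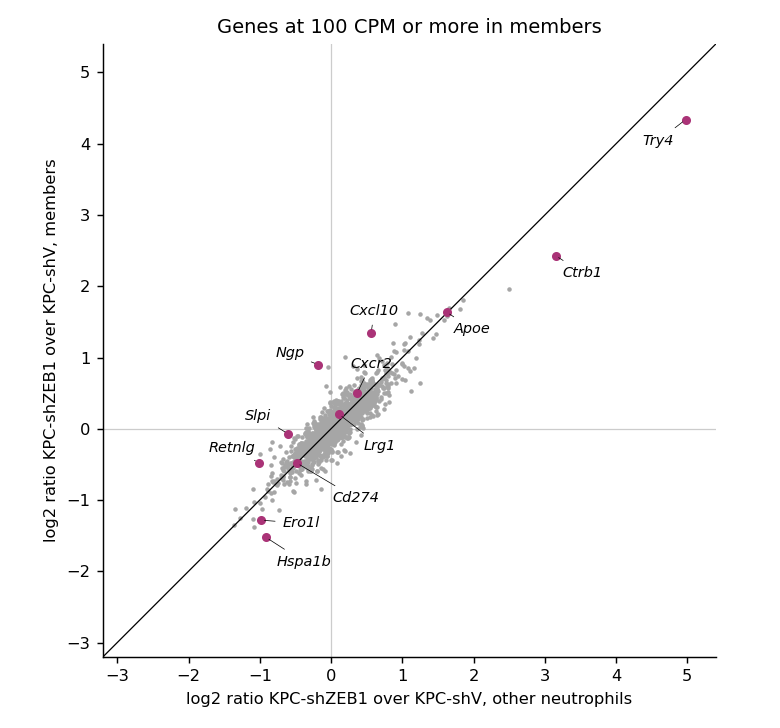
Log2 ratio KPC-shZEB1 over KPC-shV in Cxcr2-Retnlg members (vertical) against the same ratio in other neutrophils (horizontal), for 1638 genes at 100 CPM or more in members of either library; the diagonal marks equal ratios. Try4, Ctrb1 and Apoe lie at the upper right, Ero1l and Hspa1b at the lower left, and Cxcl10 above the diagonal.

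Among the genes lower in members of the shZEB1-labelled library were Ero1l, Bnip3, Hspa1b, Hmox1 and Gbe1. Ero1l stood at 849 and 349 CPM, 0.411-fold (0.380 to 0.445) in members and 0.506-fold in other neutrophils. Bnip3 stood at 266 and 109 CPM, 0.408-fold and 0.500-fold. Hspa1b, a heat shock protein induced by stress, stood at 177 and 61.5 CPM, 0.348-fold and 0.531-fold, and 5 cells held 31.1% and 40.0% of its UMIs. Hmox1, heme oxygenase, was 0.415-fold and 0.470-fold, and Gbe1, the branching enzyme of glycogen, 0.454-fold and 0.605-fold. In tumour cells Hspa1b lay at 0.499 and Hmox1 at 0.518, while Bnip3 lay at 0.791, Gbe1 at 0.781 and Ero1l at 0.948. Hspa1b was higher in tumour cells, at 348 and 174 CPM, than in members, and the part of leaked RNA in its level was not tested.

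F10, coagulation factor X, stood at 733 and 283 CPM, 0.386-fold in members and 0.471-fold in other neutrophils. Car4, a carbonic anhydrase, was 0.391-fold and 0.388-fold and the secretory kinase gene Fam20c 0.419-fold and 0.413-fold. Of 17 genes of hypoxia and glycolysis none was higher and 5 were lower in members of the shZEB1-labelled library, with a median log2 ratio of -0.46 in members and -0.42 in other neutrophils. Members with much Retnlg, in which such genes were higher, were 54.8% of members in the shV-labelled library and 40.6% in the shZEB1-labelled library. Within those cells Bnip3 stood at 374 and 174 CPM and Ero1l at 1162 and 523 CPM. The part of that share in the ratios between libraries was not tested.

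The chemokine Cxcl10, which draws T cells, stood at 165 CPM in members of the shV-labelled library and 421 CPM in those of the shZEB1-labelled library, 2.55-fold (2.32 to 2.79). In other neutrophils it stood at 318 and 469 CPM, 1.48-fold. The ratio in members was 1.72 times that in other neutrophils (1.55 to 1.91, by a normal approximation on the log scale and not exact). The other neutrophils include the interferon neutrophils, where Cxcl10 stood at 934 and 1516 CPM and which took 12.3% and 8.90% of neutrophils. In the neutrophils under 4 UMIs of the 3 genes, from which such cells were also set aside, it stood at 149 and 333 CPM. In members, 5 cells held 22.8% and 25.7% of its UMIs, and without them the ratio was 2.45. Gbp5, an interferon-induced GTPase, stood at 68.7 and 211 CPM in members, 3.07-fold, and was 2.12-fold in other neutrophils. Isg15 stood at 274 and 414 CPM in members, 1.51-fold, and was 1.20-fold in other neutrophils. In the neutrophils under 4 UMIs of the 3 genes, Gbp5 stood at 94.2 and 281 CPM and Isg15 at 224 and 369 CPM.

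Of 20 secreted factors 4 were past 1.5-fold higher in members of the shZEB1-labelled library and 5 lower. Besides Cxcl10 the higher ones were Ccl5, a chemokine of T cells (2.43-fold, other neutrophils 1.55-fold), Cxcl16, the ligand of Cxcr6 (2.10-fold and 1.84-fold), and Il6 (3.105-fold and 1.26-fold), which was 1.14-fold without its 5 leading cells. The lower ones were Cxcl3 (0.583 and 0.541), Ccl3 (0.614 and 0.590), Ccl6 (0.651 and 0.561), Il10 (0.647 and 0.686) and Csf1 (0.665 and 0.820).

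For the other genes the study asked about in neutrophils, the members of the 2 libraries were within 1.5-fold. Icam1 stood at 375 and 415 CPM, 1.11-fold in members and 1.28-fold in other neutrophils. Tnf was 0.790-fold and 0.855-fold, Cd274 0.717-fold in both, and Cd44 0.989-fold and 1.04-fold. Cxcr2, used to choose the members, was 1.42-fold in members and 1.29-fold in other neutrophils. Retnlg lay the other way, at 0.719-fold in members and 0.494-fold in other neutrophils. Lrg1 was 1.15-fold and 1.08-fold. The 3 genes that choose the cells thus did not move together between the libraries.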

How the data were processed

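Single-cell RNA of 2 tumour libraries, 1 per group, was analysed. The deposited values are raw UMI counts for each gene in each barcode; Cell Ranger 7.0.1 and mm10 are named in the submitters' processing notes. Whether intronic reads were counted is not given in the sources used here. The libraries held 12594 and 13271 barcodes with 130941086 and 143461224 UMIs. Of 32285 genes, 32158 had their identifier in the GRCm38 annotation.

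UMIs were summed per library and group with numpy 2.4.6, and exact intervals came from scipy 1.17.1. Genes were compared at 20 CPM or more. The 14 genes of the rule were left out of the counts of members against other neutrophils and of the split by Retnlg. The counts between libraries included those of them that stood at 20 CPM or more. The rule used no doublet caller. Scrublet in scanpy 1.11.5, with scores above 0.2 removed, was an alternative and took out 42 and 14 members. A test on simulated counts checked the ratios. No p-value was computed, since there was 1 library per group.

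The members, the 18 gene lists and the alternatives were chosen with earlier results of these data known. Named genes were, outside the rule, the 12 highest and 12 lowest ratios of members over others among called genes, the 8 highest and 8 lowest between libraries at 100 CPM or more, the genes of the lists, and 6 genes the study asked about. Those named for the split by Retnlg outside the lists (Syne1) were chosen after their values were seen. Of the alternatives, 14 were planned and 4 were added after the data were seen. Results for 1 gene of the adhesion list, which stays in the counts, are not reported here.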

Additional observations from a re-analysis of the deposited data

Results flagged for a closer look

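Each item below had counting intervals on opposite sides of 1 and a difference of at least 1.1-fold in each group. The difference between groups was not tested, since there was 1 library per group, and intervals cover counting error only. Ctrb1, an acinar gene, lay at 1.27-fold in members over other neutrophils in the library labelled KPC-shV and at 0.766-fold in the library labelled KPC-shZEB1. In the first of these, 5 cells held 31.5% of the members' UMIs. Without them and without the 5 leading cells of the other neutrophils, the ratio was 0.928. Il1r2, the decoy receptor for interleukin 1, lay at 1.15 in the first and 0.908 in the second. In the first, Il1r2 stood at 1331 CPM in members, 2023 in Siglecf neutrophils and 1115 in interferon neutrophils. It stood at 1052 CPM in the neutrophils under 4 UMIs of the selecting genes. In the second these values were 1643, 2882, 1447 and 1652 CPM in the same order. S100a10 lay at 0.908 in the first and 1.14 in the second. Vegfa, a factor for vessel growth, lay at 0.806 for KPC-shZEB1 over KPC-shV in members and at 1.15 in other neutrophils. From KPC-shV to KPC-shZEB1, Vegfa went from 210 to 364 CPM in Siglecf neutrophils and from 149 to 131 CPM in interferon neutrophils. In the neutrophils under 4 UMIs of the selecting genes it stood at 181 and 182 CPM. Siglecf neutrophils took 5.58% and 8.78% of neutrophils. The part of the Siglecf neutrophils in the Il1r2 and Vegfa results was not tested.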

How the results depend on the processing

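No paired analysis was possible because each group had 1 library, and no replicate could be left out.
The ratio of member shares of neutrophils (0.837 as reported) was 0.739 at 6 UMIs, 0.930 with members cut by a share of 0.1% of UMIs, 0.957 after thinning, 0.640 by Retnlg alone and, turning the order, 1.102 with Retnlg left out. The ratio of shares of kept cells (0.385) was 0.340, 0.427, 0.439, 0.294 and 0.507 in the same order, 0.445 in cells of 2000 to 6000 UMIs, 0.349 without neutrophils with 5 UMIs or more of the acinar list and 0.341 without those with 5 UMIs or more of other cell types. Genes higher and lower in members over other neutrophils numbered 59 and 67 at a floor of 100 CPM, 210 and 126 centred and 22 and 33 at 2-fold. Between libraries they numbered 116 and 62 at a floor of 100 CPM and 182 and 33 at 2-fold, and 299 were lower when centred.
For single genes of members over other neutrophils, 126 ratios under the alternatives gave 2016 values, of which 1580 moved by less than the counting interval, 422 moved further and 14 turned. Camp turned in the library labelled KPC-shV to 0.0381 (share of 0.1%), 0.0707 (thinned), 0.0570 (Retnlg alone) and 0.732 (without other cell types), and in the library labelled KPC-shZEB1 to 0.576 (2000 to 6000 UMIs) and 0.586 (without other cell types). Ngp turned in the first to 0.209, 0.586 and 0.350 under the first 3 of these and in the second to 0.451 without other cell types. With Retnlg alone, Fnip2 turned to 1.02 and 1.16, Gpnmb to 1.05 and Hilpda to 1.04, these both in the library labelled KPC-shZEB1. Between libraries, 4 of 832 values turned: Ngp to 0.800 and Ltf to 0.734 in cells of 2000 to 6000 UMIs, and to 0.151 and 0.561 without other cell types. The cause was not tested. Genes near the floor of 20 CPM rest on few UMIs in the smaller library, so small differences there were not detectable.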
